A study of Macaca mulatta with 10 samples.

Results

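The liver of living, anaesthetised rhesus macaques (Macaca mulatta) is described here from the 5 arrays labelled Liver_Control, of 10 arrays in the series. One array was hybridised per animal. The control animals were 3 females aged 16, 10 and 4 years (animals 1, 2 and 3) and 2 males aged 20 and 10 years (animals 4 and 5). Each was sedated, anaesthetised and ventilated for 1 h, and its abdominal organs were flushed in place with UW preservation solution before the liver was taken. No genotype, strain or drug beyond this is given in the labels. The other 5 animals were brain dead, for 6 h by their labels, and no level is compared with theirs. They were 2 females aged 7 and 18 years and 3 males aged 7 and 7 years, with the age of the remaining male not given. Their spread, and the sex difference of a probe set, are given beside those of the controls, from which they also differ in age and sex. Of 52865 probe sets on the array, 24956 had exactly 1 gene symbol in the platform annotation once the 99 control probe sets were left out, and they stood for 14132 genes. A gene is represented by its probe set with the highest mean. Unless said otherwise, a value is the log2 of the deposited signal, given as the mean ± SD over the 5 animals, and values of single animals are given in the order 1 to 5.

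The liver makes most of the proteins of blood plasma, among them clotting factors, complement, apolipoproteins and protease inhibitors, and its hepatocytes release them straight into the sinusoids. The same cells store and release glucose, make ketone bodies and bile acids, clear ammonia through the urea cycle and modify drugs. Several of these programmes are set from hour to hour by feeding, hormones and the clock. Many plasma protein genes are known for very high expression, and those of the acute phase rise in inflammation. Kupffer cells (resident macrophages), fenestrated endothelium, stellate cells and bile duct cells make up most of the remainder of the tissue.

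The arrays carried a common scale, with a trimmed mean signal of 1000.08 to 1000.09, and their medians lay between 184 and 227. Spearman correlations between the 10 pairs of control arrays over all probe sets ran from 0.901 to 0.923. Animals 1 and 4 stood apart: the median absolute deviation from the gene means was 0.349 in animal 1 and 0.309 in animal 4, against 0.203 to 0.238 in the others. The ratio of 3 prime to 5 prime signal was 1.24 to 1.41 for the actin control probe sets and 0.962 to 1.12 for GAPDH. The spiked-in dap and thr controls averaged 13.75 in animal 1 and 12.63 to 12.81 in the others. The bioB, bioC and bioD controls (13.45 against 12.86 to 13.16) and cre (16.74 against 16.35 to 16.57) were also highest there. The lys and phe controls went the other way, at 9.90 in animal 1 and 10.29 to 10.36 in the others. The part of these differences in the results was not tested. Genes of pancreas and of heart muscle were bright on some of the arrays. Where a count rests on 1 animal, the value without that animal is given beside it. The labels name each animal separately, so the spread is between animals, with sampling of the tissue, RNA preparation and array included in it. With 5 arrays, precision is limited by their number.

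The gene with the highest mean signal was FGG, the gamma chain of fibrinogen, at 17.16 ± 0.13. Its 5 values were 17.31, 17.23, 16.98, 17.19 and 17.06, so all animals lay within 1.25-fold of each other. The partner chains FGA (16.98 ± 0.21) and FGB (16.91 ± 0.20) stood at ranks 4 and 5, so that all 3 fibrinogen chains were among the 5 highest genes. Between them came SERPINA1, which encodes alpha-1-antitrypsin, at 17.06 ± 0.15, and HP, the haemoglobin scavenger haptoglobin, at 17.05 ± 0.17. SERPINA1 read 17.22, 17.23, 16.97, 16.97 and 16.90, and was higher in animals 1 and 2 than in the other 3.

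Among the 25 highest genes, 14 stood on the secretory lists, which is 56%, against 0.856% of all 14132 genes. The further members of this group were the apolipoproteins APOA1 (16.82 ± 0.15), APOA2 (16.73 ± 0.08) and APOC3 (16.61 ± 0.15), and HRG, the histidine-rich glycoprotein of plasma (16.80 ± 0.14). RBP4, the carrier of retinol, stood at 16.72 ± 0.19, and the haem carrier HPX at 16.67 ± 0.14. Acute phase proteins completed it, with ORM1 at 16.70 ± 0.25, SERPINA3 at 16.65 ± 0.25 and CP, the copper carrier ceruloplasmin, at 16.56 ± 0.24. The metabolic lists, which also hold CP, added MT2A, a metal-binding metallothionein (16.87 ± 0.19), CYP3A4, the main drug-oxidising cytochrome (16.58 ± 0.31), and GSTA1, a glutathione transferase (16.55 ± 0.14). The median SD of the 25 genes was 0.17, against 0.395 over the 8640 genes that lay above the array median on all 5 arrays. These SDs are those of the brightest probe set of each gene. The 36 dimmer probe sets of 18 of the 25 genes had a median SD of 0.35. For the 32 of them above the array median on all 5 arrays it was 0.31. The SDs of the dimmer SERPINA1 probe sets ran from 0.06 to 0.95.

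**Figure D1:**
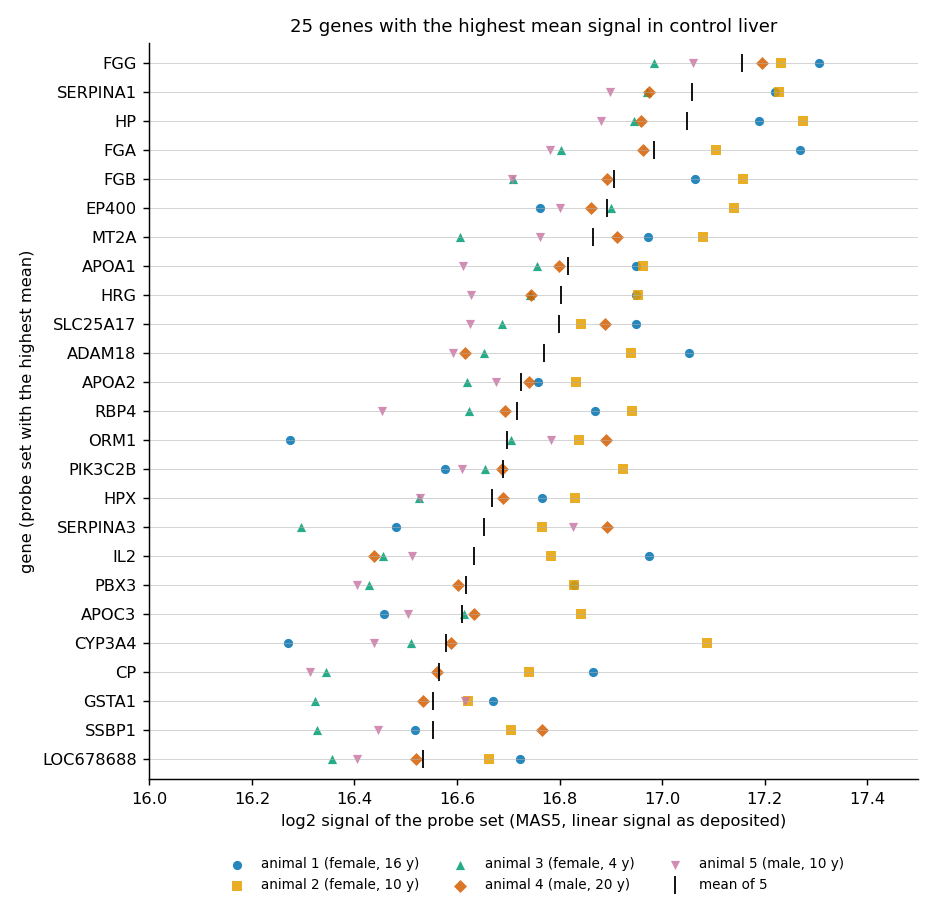
Log2 signal (x axis) of the 25 genes with the highest mean in control liver (y axis), with 1 coloured symbol per animal and a black tick at the mean of the 5. All values lie between 16.27 and 17.31, and animals 1 and 2 hold the highest value of most genes.

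The symbols of 8 of these 25 probe sets belong to genes on none of the lists, and several are not known as abundant in liver. They were EP400 (a chromatin remodeller, 16.89 ± 0.15), SLC25A17 (a peroxisomal carrier, 16.80 ± 0.14), ADAM18 (a testis surface protein, 16.77 ± 0.21), PIK3C2B (a lipid kinase, 16.69 ± 0.14), IL2 (the T cell cytokine, 16.63 ± 0.24), PBX3 (a homeobox factor, 16.62 ± 0.21), SSBP1 (a mitochondrial DNA-binding protein, 16.55 ± 0.18) and LOC678688 (16.53 ± 0.16). Whether the platform pairs these probe sets with the right gene could not be checked, since no probe sequences were used here. For 7 of the 8, another probe set of the symbol was dimmer by 4.66 or more. IL2 had probe sets at 16.63, 16.36 and 4.03, and the dimmest lay below the array median on all 5 arrays. The gap between the brightest and dimmest probe set of a symbol was 12.60 for IL2, 12.54 for ADAM18, 9.44 for EP400 and 8.46 for PIK3C2B. It was also wide for genes that liver is known to express, at 10.88 for ORM1 and 8.32 for SERPINA1.

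Such gaps were common. Of 6375 genes with more than 1 probe set, the median gap was 2.20, and 1397 (21.9%) had a gap over 4. A rank here is therefore a rank of probe set signals, and not of transcript amounts. Among the 100 brightest of all probe sets, 38 had no symbol and 5 had several, and these are not named. ALB (albumin), TTR (transthyretin), TF (transferrin) and C3 (the central complement protein) had no probe set of 1 symbol here and were not analysed.

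The secretory lists held 121 measured genes, of which 97 (80.2%) were in the top 10% of all genes by level and 45 (37.2%) in the top 1%. Plasma carriers and protease inhibitors stood highest, with 22 of 22 measured members in the top 10% and 16 in the top 1%, and a median of 16.33. Apart from those already named, its highest members were GC, the carrier of vitamin D (16.49 ± 0.13), and the fetuin AHSG (16.45 ± 0.14). The median of all 14132 genes was 9.24. The list also held 1 of the widest secreted genes, LEAP2, a liver peptide that opposes ghrelin. LEAP2 read 12.69, 14.36, 15.60, 15.72 and 15.57, low in animal 1 and close together in animals 3, 4 and 5.

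Coagulation and fibrinolysis had 21 of 24 measured members in the top 10% (median 15.20). Antithrombin, encoded by SERPINC1, stood at 16.45 ± 0.12, plasminogen (PLG) at 16.39 ± 0.21 and prothrombin (F2) at 16.20 ± 0.08. F2 had the smallest SD of the list. F7, the factor that starts the tissue factor pathway, was the widest member, with 14.06, 13.85, 13.40, 11.48 and 13.01. Animal 4 was lowest in F7, and it was lowest too in FETUB, a fetuin (14.16, 15.82, 14.24, 13.29 and 14.88). The probe set of PROC, protein C, lay below the array median on all 5 arrays at 6.08 ± 0.49.

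Complement had 16 of 18 members in the top 10% (median 15.26). C9, a subunit of the membrane attack pore, stood at 16.41 ± 0.19, C1S, a protease of the classical pathway, at 16.34 ± 0.18, and CFB of the alternative pathway at 16.20 ± 0.23. C4BPB, the beta chain of the C4 binding protein, had the largest SD of the list (13.89 ± 0.79) and was highest in animal 4 at 15.03. Apolipoproteins and lipid transport had 14 of 20 members in the top 10% (median 14.10), with the smallest SDs in PON1, a paraoxonase of high density lipoprotein (16.10 ± 0.08), and APOA2. APOA4, an apolipoprotein best known from intestine, had the largest SD and read 9.80, 10.73, 10.11, 12.63 and 8.29. APOB, the scaffold of very low density lipoprotein, read only 8.21 ± 0.39 through its probe set. It was the 1 member of the 13 measured hepatocyte markers that was not in the top 10%.

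Acute phase proteins, whose synthesis rises in inflammation, were bright in these living donors. Of 19 measured members, 15 were in the top 10% and 10 in the top 1% (median 15.84). CRP stood at 16.10 ± 0.48 with values of 16.12, 15.61, 15.62, 16.68 and 16.47. STEAP4 and SAA1 were the widest members. SAA1 read 12.99, 15.05, 14.25, 16.40 and 15.41, a 10.6-fold span from animal 1 to animal 4. SAA2 differed, with 14.20, 13.97, 13.81, 13.56 and 13.46, highest in animal 1. The SAA genes are near-identical copies, so their signals may be shared between probe sets. HAMP, the iron hormone hepcidin, was above 16 in animals 2, 4 and 5 (16.20, 16.50 and 16.52) and lower in animals 1 and 3 (15.28 and 14.72). PTX3, a pentraxin made outside hepatocytes, lay below the median on all 5 arrays (5.42 ± 0.95).

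Hepatokines and growth factors had 14 of 23 members in the top 10% (median 13.71). Angiotensinogen (AGT) was highest, at 15.94 ± 0.12, and had the smallest SD of the list. IGFBP1, a binding protein of insulin-like growth factors that is known to rise in fasting, read 14.95, 14.92, 15.57, 15.60 and 16.29. IGF1 read 15.06, 15.72, 14.08, 14.58 and 14.69. FGF21, a hormone of nutrient stress, was lowest in animal 1 and highest in animal 3, at 8.82, 10.42, 12.41, 10.93 and 11.12. EPO and FGF19, which adult hepatocytes hardly make, lay below the median on all 5 arrays.

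The metabolic lists held 227 measured genes, of which 127 (55.9%) were in the top 10% by level and 26 (11.5%) in the top 1%. Cytochromes P450 and other phase 1 enzymes led, with 18 of 22 members in the top 10% and a median of 14.42. After CYP3A4 came CYP2C19 (16.28 ± 0.22) and the aldehyde dehydrogenase ALDH2 (16.20 ± 0.13). Cytochrome families hold near-identical copies, so single members are uncertain. CYP1A1, the cytochrome induced through the aryl hydrocarbon receptor, was the widest, at 13.10, 13.11, 8.91, 11.15 and 10.32. It was highest in animals 1 and 2 and lowest in animal 3, an 18.4-fold span.

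Conjugating enzymes and transporters had 13 of 24 members in the top 10% (median 12.91). GSTA1 was followed by UGT1A1, which conjugates bilirubin (16.02 ± 0.18). Of the 21 members above the median on all arrays, 7 were in the top 10% of spread, where 10% of all genes above the median on all arrays stand by construction. The widest were GSTZ1 (13.76 ± 1.26), an enzyme of tyrosine breakdown, and SLC22A7 (13.31 ± 1.22), an organic anion transporter. SLC22A7 read 13.88, 14.68, 13.94, 11.81 and 12.25, so both males lay below all 3 females. ABCB4, the phospholipid exporter of bile, read 14.91, 14.25, 14.07, 14.96 and 12.02, with animal 5 lowest.

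Amino acid breakdown and the urea cycle had 29 of 46 members in the top 10% (median 13.30). BHMT, which remethylates homocysteine, stood at 15.91 ± 0.44, and TAT, the tyrosine aminotransferase, at 15.89 ± 0.37. SDS, the serine dehydratase that feeds gluconeogenesis, had the largest SD, with 13.99, 14.64, 10.81, 10.54 and 12.71. Animals 3 and 4 were lowest for 19 of 44 members each, against 13.6% and 29.0% of all 8640 genes above the median on all arrays. Genes of glucose and glycogen had 18 of 27 members in the top 10% (median 13.21). PCK1, the key enzyme of gluconeogenesis, led at 16.42 ± 0.28, followed by LDHA at 16.15 ± 0.24. PPARGC1A, a coactivator of the fasting response, had the largest SD of that list at 0.85.

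Iron, haem and metal binding genes had 14 of 24 members in the top 10% (median 13.12). The metallothioneins MT2A and MT1E (16.18 ± 0.29) were even between animals, and MT1X was not, at 13.68, 14.49, 15.16, 16.59 and 16.49. Cholesterol and bile acid synthesis was lower, with 10 of 23 in the top 10% (median 11.84). INSIG1, the brake on cholesterol synthesis, was highest at 15.61 ± 0.38, and SQLE, the squalene epoxidase, was widest at 10.39, 9.10, 11.54, 10.07 and 12.46. Liver-enriched transcription factors and nuclear receptors had 8 of 25 in the top 10% (median 11.87), with CEBPB (15.08 ± 0.26) and ATF5 (14.54 ± 0.53) highest.

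Fatty acid oxidation and ketogenesis had 12 of 18 members in the top 10% (median 13.18), led by the acyl-CoA synthetase ACSL1 at 15.89 ± 0.16. Lipogenesis and triglyceride synthesis had 8 of 22 (median 11.52), led by the fatty acid carrier FABP1 at 15.99 ± 0.62.

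**Figure D2:**
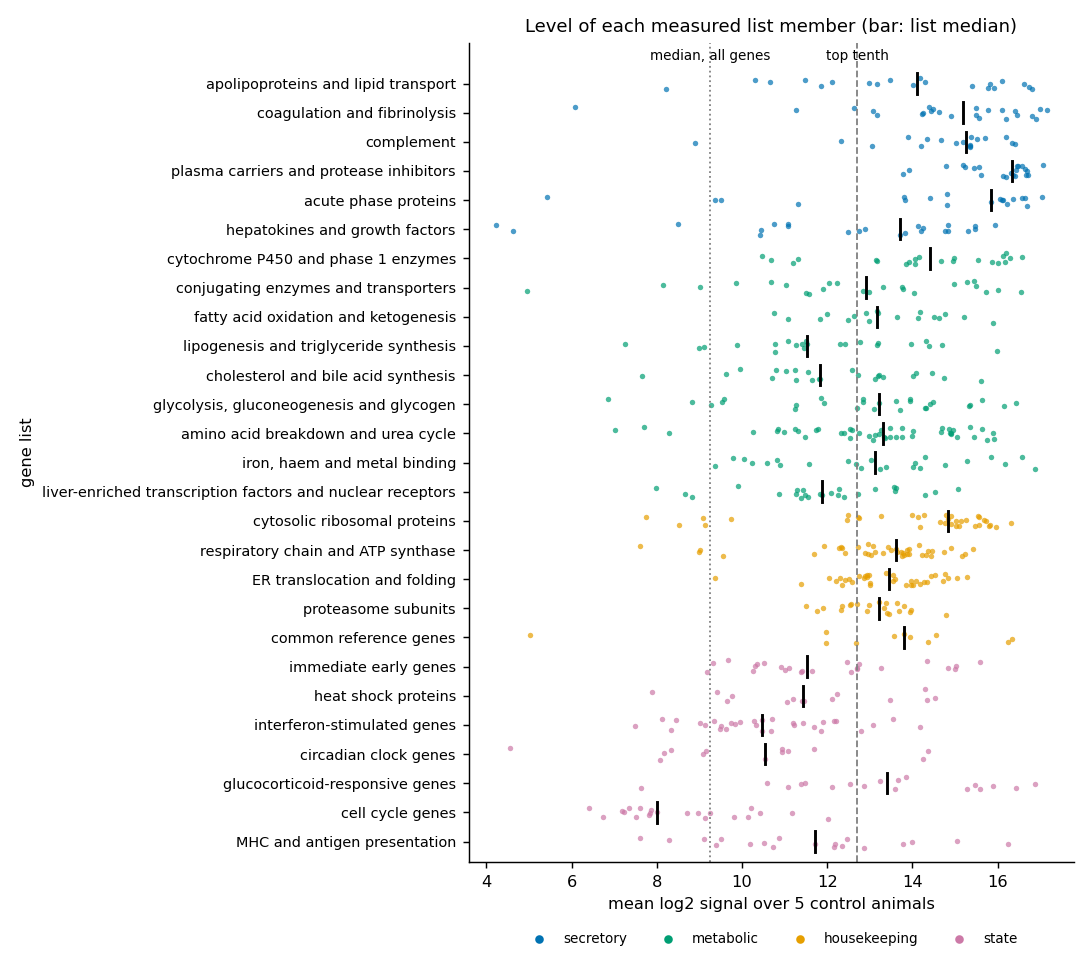
Mean log2 signal over 5 control animals (x axis) of each measured member of 27 gene lists (y axis), 1 point per gene, coloured by class, with a black bar at the list median. Dotted and dashed lines mark the median of all genes (9.24) and the lower edge of the top 10% (12.70); medians of the secretory lists run from 13.71 to 16.33.

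Genes that serve every cell were bright as well. Of 143 measured members of the housekeeping lists, 106 (74.1%) were in the top 10% by level but 11 (7.69%) in the top 1%. Cytosolic ribosomal proteins had a median of 14.83, respiratory chain and ATP synthase genes 13.62, and proteasome subunits 13.21. The list of endoplasmic reticulum translocation and folding, the entry to secretion, had 27 of 36 in the top 10% (median 13.46) and none in the top 1%. Its highest members were the chaperone CANX (15.27 ± 0.33) and the disulphide isomerase P4HB (15.04 ± 0.42). Among common reference genes ACTB was even, at 16.33 ± 0.13, while GAPDH was not, at 12.97, 14.28, 13.84, 14.11 and 14.52. Cell cycle genes lay at the other end, with 0 of 21 in the top 10% and a list median of 8.01. Of the 21, 10 (47.6%) were above the median on all arrays, against 61.1% of all genes. CDK1, the mitotic kinase, stood at 6.75 ± 0.36, below the median on all 5 arrays.

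The labelled tissue was borne out by its markers: 13 of 13 measured hepatocyte markers lay above the median on all 5 arrays and 12 of them in the top 1%. The share of all 14132 genes above the median on all 5 arrays was 61.1%. Of Kupffer cell and macrophage markers 14 of 15 were above the median on all arrays (median 12.29), led by CD14 (14.82 ± 0.40) and C1QA (14.35 ± 0.46). Endothelial markers were above it for 16 of 17 (median 11.62), led by the sinusoidal lectin FCN2 at 14.74 ± 0.33. DCN, decorin of stellate cells and fibroblasts, stood at 14.27 ± 0.10. Bile duct markers were above it for 5 of 10, and SOX9 and KRT7 were below it on all arrays. T and NK cell markers were above it for 8 of 9, with GZMA, a granule protease, at 15.17, 16.08, 13.29, 15.48 and 14.90. Fewer cells of a type and less RNA per cell cannot be told apart in these bulk samples.

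Among the 8640 genes above the array median on all 5 arrays, the median SD was 0.395, and the median gene spanned 1.97-fold from its lowest to its highest animal. Quartiles of the SD were 0.287 and 0.538. An SD of at least 1 was found in 193 genes (2.23%), and 74 genes spanned 8-fold or more. The median SD was between 0.37 and 0.42 in each of 10 bins of level. At the very top of the range it was smaller, at 0.17 for the 25 highest genes, 0.22 for the 100 highest and 0.24 for the top 1%. Of the 27 lists other than cell type and tissue markers, those with the largest median SD were lipogenesis, with 11 of 21 members in the top 10% of spread and a median SD of 0.72, and immediate early genes, with 13 of 24 and a median SD of 0.75. Interferon-stimulated genes had 9 of 28 (median SD 0.57). Respiratory chain genes had 3 of 40, and hepatocyte markers 0 of 13 with 8 in the lowest 10%.

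**Figure D3:**
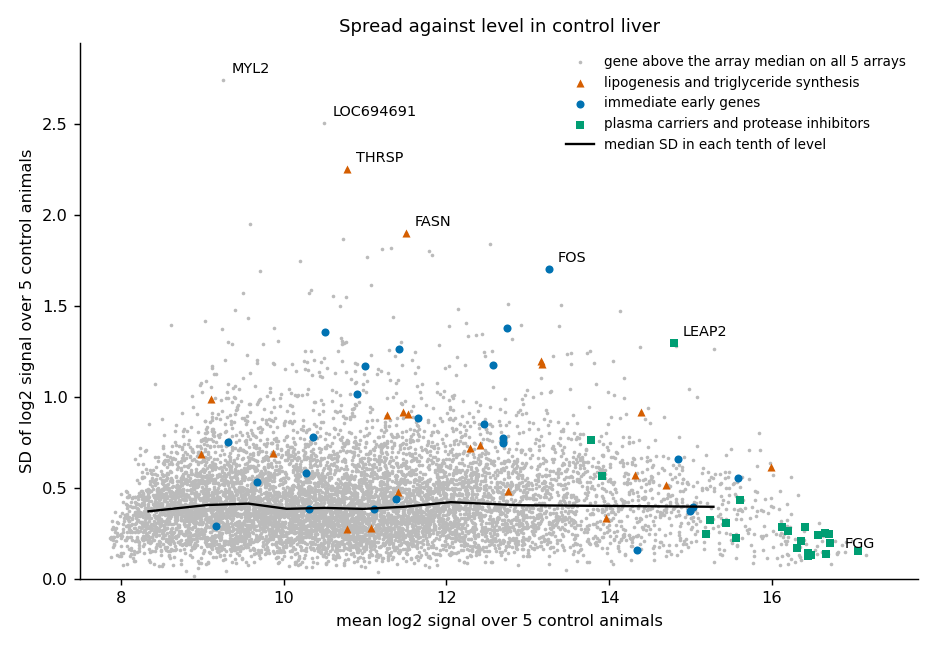
SD of log2 signal over 5 control animals (y axis) against mean log2 signal (x axis) for 8640 genes (grey), with members of 3 lists in colour and the median SD in each of 10 bins of level as a black line. The line stays between 0.37 and 0.42, lipogenesis and immediate early genes lie mostly above it, and plasma carriers mostly below it at the right.

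The largest SD among these genes was that of MYL2, a myosin light chain of heart and slow muscle. It read 7.76, 7.91, 8.14, 14.14 and 8.29 (SD 2.74), so that animal 4 was 83.6-fold above animal 1 and the other 4 animals lay together. LOC694691, a gene without a name, came next at 7.69, 11.89, 12.89, 12.14 and 7.86 (SD 2.51). THRSP, a lipogenic nuclear protein, read 8.37, 10.87, 13.08, 8.63 and 12.92 (SD 2.25). No animal was the outlying one throughout: among the 100 widest genes the value farthest from the others was that of animal 1 in 29, animal 4 in 28, animal 3 in 18, animal 2 in 16 and animal 5 in 9. In the same order, the shares over all 8640 genes were 35.2%, 25.5%, 11.4%, 15.2% and 12.7%.

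Other genes of fat synthesis joined THRSP among the 25 widest. FASN, the fatty acid synthase, read 10.61, 10.66, 13.94, 9.31 and 12.98 (SD 1.90), a 24.9-fold span. MID1IP1, which binds acetyl-CoA carboxylase, read 10.16, 10.61, 13.33, 9.23 and 12.03. In THRSP, FASN and MID1IP1 alike, animals 3 and 5 were the 2 highest. These genes are named because of their spread over the same 5 arrays.

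Other wide genes divided the animals in various ways. ITLN1, an intestinal lectin, was high in animals 2 and 4 (11.69 and 11.72) and between 7.93 and 8.55 in the others. DEFB1, an epithelial defensin, was lowest in animal 1 (8.63) and highest in animals 3 and 5 (12.64 and 12.73). TNFRSF12A, the TWEAK receptor, was above 12 in animals 3, 4 and 5 and below 11 in animals 1 and 2. CBLN3 was above 12 in the 3 females and read 10.05 and 8.58 in the males. LOC715347 read 13.66, 13.58, 9.52, 11.33 and 10.82, and like CYP1A1 was highest in animals 1 and 2 and lowest in animal 3.

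HBA, alpha globin, was highest in animal 4 at 15.75, against 11.87 to 13.93 in the others. STEAP4, a metalloreductase, was also highest there at 11.78, against 7.91 in animal 1. The remaining 11 of the 25 were RAB30, MFAP3L, LRATD1, GFRA3, MCM10, CFAP52, RBM17, LOC702286, LOC720054, APOA4 and FOS, with an SD from 1.48 to 1.87. With SDS, described above, they complete the 25. Just inside that number stood LOC720054 (SD 1.48) and just outside it TNNC1 and CPT1A (both 1.48).

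**Figure D4:**
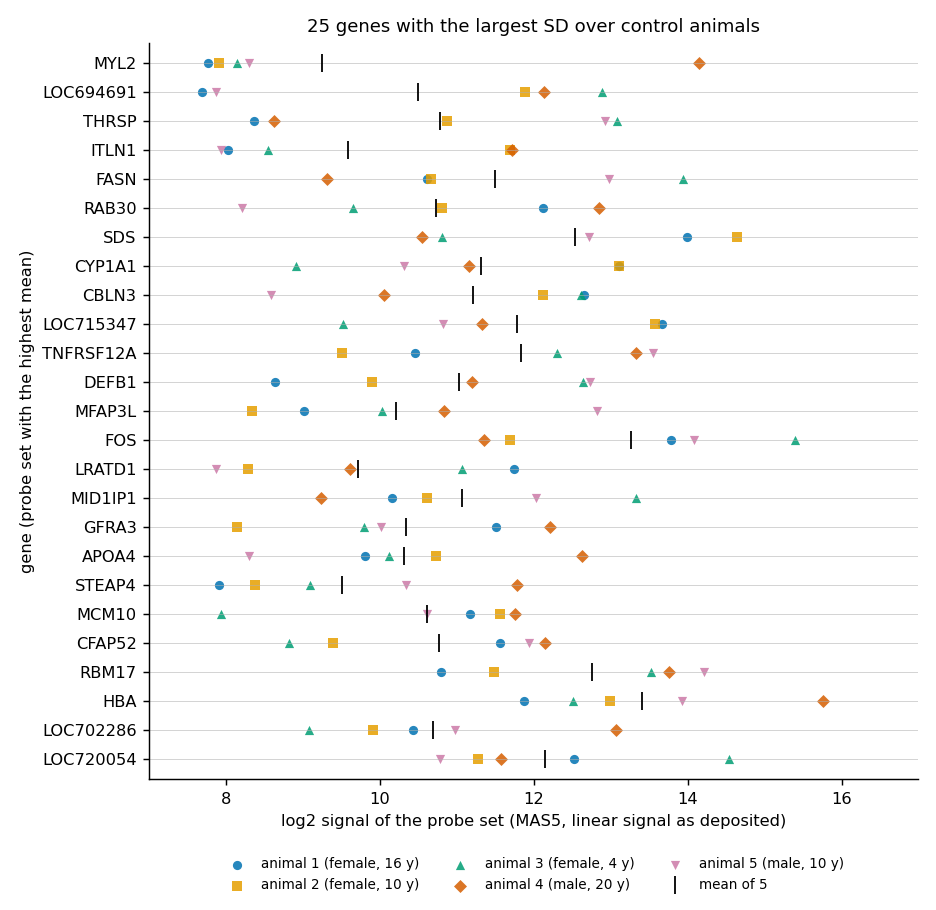
Log2 signal (x axis) of the 25 genes with the largest SD among those above the array median on all 5 arrays (y axis), with 1 coloured symbol per animal and a black tick at the mean. MYL2 is set apart by animal 4 alone at 14.14, while THRSP, FASN and MID1IP1 are split between animals 3 and 5 and the other 3.

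The lipogenesis list was highest in animals 3 and 5. The members deviated from their own means by 0.76 on average in animal 3 and by 0.41 in animal 5, and by -0.14, -0.44 and -0.58 in animals 2, 1 and 4. Animal 3 was highest for 12 of 21 members, against 15.4% of all 8640 genes, and animal 4 lowest for 10, against 29.0%. ELOVL6, which lengthens fatty acids, read 12.06, 12.51, 14.61, 12.34 and 14.32. GPAM, the first enzyme of triglyceride synthesis, read 14.17, 14.35, 15.37, 13.01 and 15.07, and ACLY, which supplies acetyl-CoA, 11.51, 10.92, 12.81, 10.48 and 11.95. In each of these 3 genes animals 3 and 5 were the highest.

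SREBF1, the transcription factor that drives these enzymes, had an SD of 0.72 and read 12.17, 12.13, 13.16, 11.25 and 12.73. The acyltransferases DGAT1 and AGPAT2 had SDs of 0.28 and 0.27, the latter the smallest of the list. Without animal 4 the count in the top 10% of spread was 8, and without animal 3 it was 9. Animal 3 was the youngest animal (4 years) and animal 5 a 10-year-old male, and the part of age in these values was not tested.

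CPT1A, the entry step of fatty acids into mitochondria, was low in the animals in which these genes were high. It read 15.06, 15.00, 12.54, 15.55 and 12.53 (14.14 ± 1.48), so animals 3 and 5 lay more than 2 below the other 3. PPARA, the receptor that drives oxidation, read 12.99, 12.30, 11.27, 11.56 and 11.03, with the lowest values again in animals 3 and 5. PDK4, which spares glucose, did not divide the animals that way, at 13.13, 12.22, 13.01, 10.71 and 10.83. The oxidation list had 6 of 18 members in the top 10% of spread, and animal 5 was lowest for 10 of the 18, against 15.3% of all 8640 genes. Animal 3 was lowest for only 1 of the 18, against 13.6% of all genes. The mean deviation of the list was -0.46 in animal 5 and -0.09 in animal 3, so the list as a whole was not clearly low in animal 3.

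Immediate early genes, which are transcribed within minutes of a stimulus, were highest in animal 3 for 11 of 24 members, against 15.4% of all 8640 genes. Their mean deviation was 0.67 in animal 3, 0.23 in animal 5, -0.13 in animal 1, -0.30 in animal 4 and -0.47 in animal 2. FOS read 13.78, 11.69, 15.39, 11.35 and 14.08 (SD 1.70), with animals 2 and 4 lowest. NR4A1 read 11.16, 10.01, 12.34, 9.61 and 11.86, also with animals 2 and 4 lowest. EGR2 read 10.84, 9.33, 12.50, 10.75 and 9.14 and was likewise high in animal 3 and low in animal 2, but not low in animal 4.

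DUSP1, the highest of the list, stood at 15.58 ± 0.55, and MYC had the smallest SD, at 14.34 ± 0.16. Without animal 3 the count in the top 10% of spread was 10.

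Interferon-stimulated genes had a median level of 10.46, against 9.24 over all 14132 genes, and 4 of 31 were in the top 10%. They were highest in animal 1 for 13 of 28 members and lowest in animal 5 for 12. Over all 8640 genes these shares were 29.5% and 15.3%. MX1 read 13.13, 10.87, 10.86, 12.38 and 11.16, and STAT2 11.28, 9.80, 9.82, 9.59 and 8.73. The chemokines CXCL10 (9.77, 13.04, 12.33, 10.63 and 11.42) and CXCL11 (14.81, 15.17, 13.11, 14.97 and 12.85) were highest in animal 2. CXCL10 was lowest in animal 1, unlike the list mean. Without animal 1 the count in the top 10% of spread was 6. Genes of antigen presentation were highest in animal 2 for 12 of 17, against 19.2% of all 8640 genes, with a mean deviation of 0.50 there and between -0.23 and 0.08 elsewhere.

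Animal 1 was set apart by low values of several gene families. Proteasome subunits deviated by -0.75 in it, and 19 of 21 were lowest there. Respiratory chain genes deviated by -0.66 (31 of 40 lowest there) and ribosomal proteins by -0.60 (25 of 33). Over all 8640 genes animal 1 was lowest for 26.3%. RPL35A read 15.50, 16.57, 16.56, 16.52 and 16.43, and PSMB7 12.42, 13.98, 13.85, 14.11 and 13.79, with animal 1 alone below the others. The spiked-in dap and thr controls were highest on that array and lys and phe lowest, and their part in these values was not tested. Without animal 1, 0 of the proteasome and 0 of the respiratory chain genes were in the top 10% of spread, against 2 and 3 with it.

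Animal 4 was highest for 17 of 21 proteasome subunits and 22 of 36 genes of endoplasmic reticulum translocation and folding, against 20.7% of all 8640 genes. Endothelial markers were lowest in animal 4 for 11 of 16, against 29.0% of all genes, and deviated there by -0.67. VWF, the von Willebrand factor, read 11.74, 11.75, 10.30, 9.16 and 9.53. Macrophage markers were lowest in animal 1 for 10 of 14, against 26.3%, and LYZ, lysozyme, read 11.25, 13.13, 13.08, 13.40 and 12.99. Hepatocyte markers deviated on average by no more than 0.16 in any animal, where their median SD was 0.17. Animal 2 was highest for 9 of the 13 and animal 1 for 4, against 19.2% and 29.5% of all 8640 genes.

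**Figure D5:**
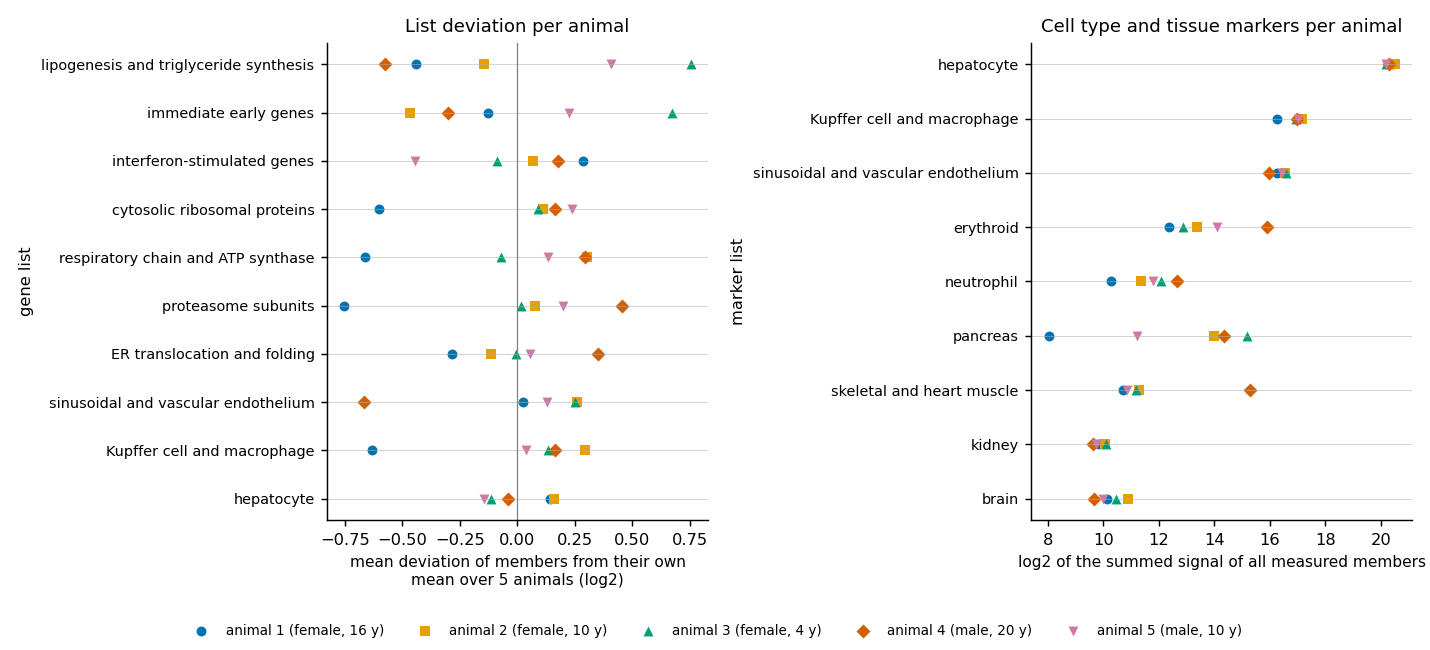
Left, mean deviation (log2, x axis) of the members of 10 lists from their own mean over 5 animals, 1 symbol per animal. Right, log2 of the summed signal (x axis) of all measured members of 9 marker lists; pancreas runs from 8.03 in animal 1 to 15.20 in animal 3, and muscle reaches 15.28 in animal 4 against 10.70 to 11.30 elsewhere.

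Digestive enzymes of the pancreas gave signal in 4 of the 5 livers. PNLIP, pancreatic lipase, read 5.60, 12.30, 13.87, 13.12 and 7.99, and CPB1, carboxypeptidase B, read 4.73, 11.89, 13.27, 12.16 and 9.94. These are the lowest values in animal 1, high values in animals 2, 3 and 4, and a level between them in animal 5. PRSS2 (trypsin), CPA1, CTRC and PNLIPRP1 kept that order of animal 1, then animal 5, then the other 3. All 7 measured pancreas genes were lowest in animal 1, where 0 of 7 lay above the array median, against 6 of 7 in animals 2, 3 and 4 and 5 of 7 in animal 5. Animal 1 was lowest for 26.3% of the 8640 genes above the median on all arrays, a set that holds none of the 7. GCG, glucagon of the islets, was below the median on all 5 arrays. The 6 enzyme genes failed the rule of lying above the median on all 5 arrays and so are not among the widest 25, although their SDs ran from 2.07 in CTRC to 3.60 in PNLIP.

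Of 15 measured muscle genes 7 were highest in animal 4. That animal was highest for 20.7% of the 8640 genes above the median on all arrays, a set that holds only 2 of the 15. TNNI3, the heart troponin I, read 5.53, 4.24, 4.60, 11.86 and 4.76, and TNNT2, the heart troponin T, 7.24, 7.95, 7.93, 11.78 and 6.92. MB, myoglobin, read 6.71, 4.02, 7.44, 13.52 and 5.37. With MYL2 and TNNC1 (9.31, 9.12, 7.93, 11.87 and 8.77), they were high in animal 4 alone. TNNT3, TNNI2, MYL1 and MYH2 of fast skeletal muscle lay below the median on all 5 arrays, and so did MYH6 and NPPA of the heart. Red cell genes were also highest in animal 4, with HBB, beta globin, at 9.59, 10.79, 10.18, 12.28 and 10.10. The part of pancreas, muscle or blood RNA in the signals of other genes was not tested. Kidney genes lay below the median on all arrays for 7 of 8, brain genes for 4 of 7 and intestine and stomach genes for 7 of 12. The share of all genes below it on all 5 arrays was 23.1%. In that last list ALPI, the intestinal alkaline phosphatase, was in the top 1% at 16.18 ± 0.14, and VIL1, the brush border protein villin, stood at 12.52 ± 0.47.

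Beside PNLIP, CPB1 and MB, only PLAAT2 and UPP2 failed that rule and yet reached the level of the top 10% (12.70) on at least 1 array. PLAAT2, a phospholipase and acyltransferase, read 13.47, 8.35, 13.69, 15.78 and 5.17 (SD 4.38), high in animals 1, 3 and 4, and low in animals 2 and 5. UPP2, the liver uridine phosphorylase, read 12.79, 11.60, 6.83, 6.82 and 9.59.

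At the other end of the spread stood C4H6orf47, at 8.90 ± 0.014, whose 5 animals lay within 1.02-fold of each other. Next came EDEM2, which clears misfolded glycoproteins (11.15 ± 0.038), ZNF319 (9.30 ± 0.040), the cell cycle inhibitor CDKN2D (8.80 ± 0.044) and TPRG1L (13.47 ± 0.048). Of the 20 evenest genes, TPRG1L alone was in the top 10% by level. The others were NF1, FZD1, TSEN54, KDM2A, UBE2G1, PCNX3, ZNF518B, ZNF565, SLC34A3, LOC699389, IKBIP, PI4KB, CLYBL, PHOX2A and MRM3, with SDs from 0.057 to 0.077. Just outside were STAM2 and MACROH2A1 (both 0.077). Membership was unstable: leaving out 1 animal kept 4 to 8 of the 20, against 16 to 21 of the 25 widest genes. It also depended on the scaling of the arrays. Quantile normalization kept 4 of the 20 and centring each array on its median kept 2, while each kept 24 of the 25 widest.

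The spread could also be read in the 5 brain-dead animals, which the ranking did not use. Of the 25 widest genes 20 were above the median on all 5 of those arrays, and 14 of the 20 (70%) were in the top 10% of spread there. Of the 100 evenest, 96 were above it and 0 were in the top 10% of spread. The evenest genes themselves hardly recurred. Ranked on the brain-dead arrays alone, 0 of the 20 evenest and 4 of the 100 evenest were again in the list of that size. Of the 25 widest, 7 were again among the 25 widest there. The Spearman correlation between the 2 sets of SDs was 0.38 over 8144 genes. Single genes differed: FASN had an SD of 0.40 there against 1.90 in control animals, THRSP 1.74 against 2.25, SAA1 0.10 against 1.28, and GFRA3 3.51 against 1.59. The difference between these SDs was not tested.

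The 3 females were compared with the 2 males as a contrast within the controls that the labels allow. By limma, 0 of 28407 probe sets passed an adjusted p of 0.05 (0% called), and 3010 (10.6%) had an unadjusted p under 0.05. The lowest adjusted p, 0.0527, was that of a probe set of MAMU-A, a class I histocompatibility gene, that is not the brightest of that gene. It read 8.97, 9.52 and 10.57 in the females and 14.91 and 14.88 in the males, a difference of -5.21 ± 0.47 (female minus male, SE). Class I genes are near-identical and differ between animals, so the gene measured is uncertain. In the brain-dead animals the difference was 1.50, with the sign turned. Without animal 5 the test called 23 probe sets higher in females and 5 higher in males, with animal 4 as the lone male, assumed to vary as the females do. Without animal 4 it called 1 probe set higher in females, and without animal 3 it called 1 higher in males. SRY, the only Y-linked gene with a probe set paired here, lay below the median on all 5 arrays, and XIST had none, so the labelled sexes could not be checked.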

How the data were processed

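Total liver RNA of 10 rhesus macaques was hybridised to 1-colour arrays. The deposited values are signal intensities computed by the authors with MAS5, per the submitters' processing notes, on a linear scale with a common trimmed mean, and the MAS5 version and genome build are not given in the sources used here. Detection calls were not used, so "above the array median" stands in for detection. The intensities were taken to log2 as deposited. Gene symbols come from the platform annotation of 2016, and of its probe sets 361 with several symbols and 27535 with none were left out. Each gene is represented by its probe set with the highest mean.

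The members and gene lists were chosen with earlier results of these data known. Level ranks and spreads are descriptions. The sexes were compared with limma 3.58.1 (lmFit and eBayes with trend, Benjamini-Hochberg adjustment, threshold 0.05) in R 4.3.3, after testing on simulated data. The limma p-values set the sex difference against the spread within each sex among these 5 samples. That spread is moderated with the trend over all probe sets tested. Named genes are the 25 highest, the 25 widest and the 20 evenest, up to 4 members of each list (the highest, the widest and the evenest), the 5 of the 25 highest with the largest gaps between probe sets, and SRY and the reference genes. Genes named beyond these, among them most of the lipogenesis, pancreas and muscle genes, PLAAT2 and UPP2, were chosen after their values were seen. Alternatives were quantile normalization, centring on the array median, added constants of 16 and 64, the middle probe set of a gene, another filter and measure of spread, the median over arrays, other limma settings, and leaving out each animal. Coordinates and sequences are not used here.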

Additional observations from a re-analysis of the deposited data

Results flagged for a closer look

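In 16 of the 242 named genes (6.61%), 1 animal stood apart from the other 4. The gap from its value to the nearest other, divided by the range of the 5, was above 0.71, Dixon's limit for 5 values, which chance exceeds in about 1 of 20 groups. Over the 8640 genes above the median on all arrays 645 (7.47%) did so, with animal 1 the far one in 353 and animal 4 in 167. The share among the named genes was not above this. Many of them were named for their values on the same 5 arrays, so the ratio is no separate test of them.

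Animal 4 was alone in MYL2 (ratio 0.916), TNNI3 (0.831) and TNNT2 (0.787), the heart muscle genes given above. It was also alone in CRYAB, a small heat shock protein that muscle holds in quantity (0.787), at 11.26 against 8.56 to 9.13. In FDPS, which makes farnesyl diphosphate, it was the low one (0.811), at 10.80 against 11.29 to 11.41.

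Animal 1 was the low one in RPL35A (0.871) and RPS6 (0.818), which encode ribosomal proteins, and in PSMB7 (0.808), a proteasome subunit. The same held for the macrophage genes LYZ (0.809) and C1QA (0.767), where C1QA read 13.56 against 14.44 to 14.70. It held for the platelet genes PF4 (0.76), at 7.24 against 9.55 in animal 3, and ITGA2B (0.729), at 6.45 against 7.68 to 8.13. PTX3 (0.743) read 3.77 there and 5.48 to 6.06 elsewhere, below the median on all arrays. CLYBL (0.737), among the evenest genes, read 11.61 there and 11.75 to 11.79 elsewhere.

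Animal 5 was alone in LUM, lumican of fibroblasts (0.763), at 12.23 against 11.04 to 11.32, and in CD5L, a macrophage protein (0.725), at 13.24 against 13.62 to 13.76. The cause of these values was not tested.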

How the results depend on the processing

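Of the 25 highest genes, all 25 stayed under quantile normalization, centring and both added constants, and 15 with the middle probe set of a gene; secretory genes numbered 14 to 15 among the 25 highest under all settings run. The spread counts depended on the filter. Without the filter the median SD was 0.485 and 2236 genes had an SD of at least 1, against 72 above the 75th percentile of each array. In the top 10% of spread, lipogenesis had 2 members without the filter and 6 on the brain-dead arrays alone. Immediate early genes had 7 above the 75th percentile, 4 without the filter and 7 on the brain-dead arrays. Interferon-stimulated genes had 4, 3 and 15 there. By construction those filters change which genes are ranked by spread. Leaving out each animal gave 8 to 13 lipogenesis genes, 10 to 13 immediate early genes and 6 to 11 interferon-stimulated genes.

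Of the probe sets compared between sexes with limma, 1 was higher in males with the stricter filter, centring, an added 16 or 64, robust eBayes or age added, and 0 with quantile normalization, no filter or no trend. Leaving out each animal gave 0 to 23 higher in females and 0 to 5 higher in males. The MAMU-A difference was 1.50 in the brain-dead animals, reversed. No paired analysis was possible because 1 group was analysed and its replicate numbers pair nothing. With 5 arrays and no detection calls, signals near the array median are the least certain.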
